A study of Mus musculus with 8 samples.

Results

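The growth hormone and IGF axis of the liver was examined through 10 genes: the growth hormone receptor Ghr, the hormone Igf1 and its carrier subunit Igfals, the binding proteins Igfbp1, Igfbp2 and Igfbp3, the feedback inhibitors Socs2 and Cish, and the transcriptional repressors Bcl6 and Cux2. Every probe that the array files assign to one of these gene names was taken separately, which gave 21 of 55681 probes and 10 of 34836 gene names. Gene expression had been measured in liver of male mice of 2 strains, NZO/HiBomDife (New Zealand Obese, below NZO; n = 4) and C57BL/6 (below B6; n = 4), on 1-colour Agilent arrays with 1 array per mouse. All mice were 6 weeks old and had received a diet with 45% fat, so that no group on another diet, of the other sex or of another age was available here. The question behind the comparison is which genes differ between an obese, diabetes-susceptible strain and a lean, diabetes-resistant strain, and the strains differ throughout the genome.

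Growth hormone from the pituitary binds GHR on hepatocytes and activates the kinase JAK2, which phosphorylates STAT5 proteins, and these in turn activate Igf1, Igfals, Socs2 and Cish. The liver secretes most of the circulating IGF1, which travels bound to IGF-binding proteins, and Igfbp1 is in addition repressed by insulin and induced in fasting. In rodents, growth hormone is released in pulses in males and more continuously in females, a difference that sets many sex-biased liver genes, with BCL6 as a male-biased and CUX2 as a female-biased repressor.

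In liver of NZO mice, Igf1 was higher at 4 of its 5 probes (1.78-fold to 2.53-fold), whereas Igfbp1 was 7.25-fold lower and Igfbp2 11.3-fold and 12.1-fold lower at its 2 probes. The 3 measurable Socs2 probes were on average 3.92-fold to 5.64-fold higher in NZO, but the B6 mice differed so much among themselves that none of them passed the adjusted threshold. The values of Ghr, Igfals, Igfbp3, Cish and Bcl6 did not pass the thresholds either, and Cux2 was too dim to be tested.

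Levels are given as log2 of the processed signal minus the 75th percentile of the same array, so that 0 stands for the signal that 75% of the spots did not exceed, and 1 unit is a doubling. That percentile ranged from 119 to 142 intensity units in NZO and from 137 to 159 in B6, 50.4% to 55.0% of the spots were well above background in NZO and 53.1% to 60.1% in B6, and 0 spots were saturated. A probe entered the test only if every array of 1 strain or both had it well above background, and it was called when the Benjamini-Hochberg adjusted p of limma over all 27643 tested probes was at most 0.05 and the log2 difference at least 0.7. Of the 21 probes, 17 from 9 genes were tested, 4 were called higher in NZO, 3 lower and 10 not, while of all tested probes 4.36% were called higher and 5.27% lower. The median log2 difference was 0.42 over the 17 probes and 0.02 over all tested probes. Levels of different probes cannot be set against each other, because each probe binds its target with its own efficiency.

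**Figure D1:**
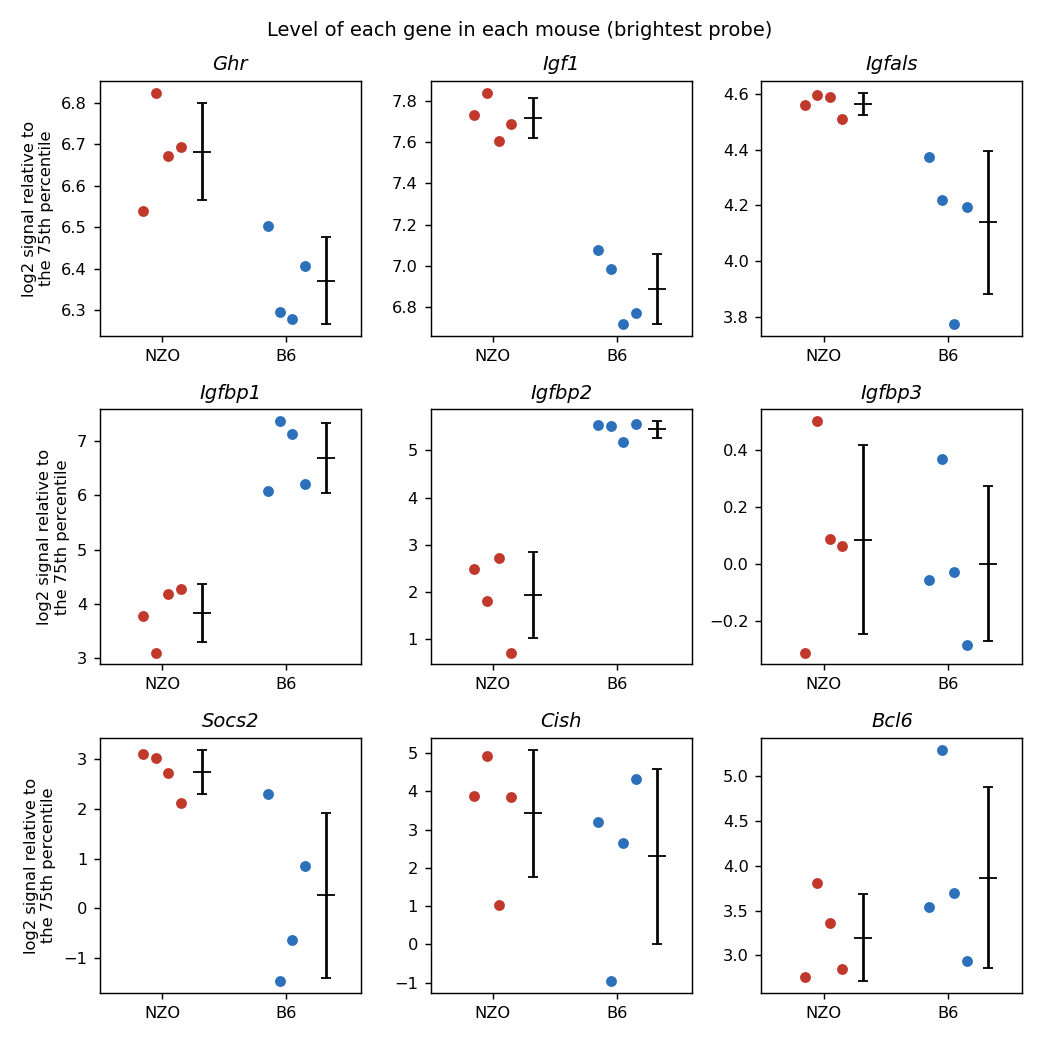
Level of 9 genes in each mouse at the brightest probe (log2 signal relative to the 75th percentile of the array; red, NZO; blue, B6; bars, mean ± SD, n = 4 per strain; axes differ between panels and do not start at 0). At these probes the strains did not overlap for Ghr, Igf1, Igfals, Igfbp1 and Igfbp2, and they overlapped for Igfbp3, Socs2, Cish and Bcl6. Other probes of Ghr, Igf1 and Socs2 differed in this, and the share of all tested probes without overlap is not given here.

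The Ghr probes, which are assigned to different transcripts, were bright in both strains. At the brighter Ghr probe (mm9, chr15:3277543-3277602, minus strand) the log2 level was 6.54, 6.82, 6.67 and 6.69 in the NZO mice and 6.50, 6.30, 6.28 and 6.41 in the B6 mice. All NZO mice were above all B6 mice, with a gap between the nearest mice that was small beside the range of either strain. The difference of 0.31 ± 0.10 (SE) had an adjusted p of 0.0849 in limma and was under the fold limit. At the second Ghr probe, assigned to another transcript, the level was 5.56 ± 0.23 in NZO and 5.42 ± 0.10 in B6 (SD, n = 4 each). There the strains overlapped, with a difference of 0.14 ± 0.13 (SE, adjusted p = 0.549 in limma). The separation of the strains was therefore seen for the transcript of the brighter probe only.

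The kinase JAK2 and the STAT5 transcription factors that relay the signal did not pass the threshold. The log2 difference between NZO and B6 was -0.06 ± 0.11 (SE) for Jak2, 0.27 ± 0.13 for Stat5a, and -0.02 ± 0.11 and 0.01 ± 0.13 for the 2 probes of Stat5b. One of the 2 probes of Stat3, named after its value was seen, differed by -0.65 ± 0.14 (SE; adjusted p = 0.0139), which is under the fold limit. Among the 22 tested probes of 16 genes listed for growth hormone receptor signalling, 2 were called higher in NZO and 0 lower. The shares over all tested probes were 4.36% and 5.27%, and the median difference of the list was -0.01. Both called probes belonged to Prlr, the receptor of prolactin, a relative of GHR that also signals through JAK2 and STAT5. The brighter Prlr probe had a level of 3.55 ± 0.29 in NZO and 2.27 ± 0.34 in B6 (SD, n = 4 each), a difference of 1.28 ± 0.21 (SE) with an adjusted p of 0.00408 in limma. The other inhibitors of the cytokine receptor pathway in the list, Socs1 and Socs3, differed by -0.46 ± 0.20 and -0.23 ± 0.26 (SE) and did not pass the threshold.

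Igf1, the growth factor that the liver makes in response to growth hormone, was higher in NZO. At the brightest probe (mm9, chr10:87393581-87393640, plus strand) the log2 level was 7.73, 7.84, 7.61 and 7.69 in the NZO mice and 7.08, 6.99, 6.72 and 6.77 in the B6 mice. The strains lay far apart, and within each of them the mice differed by less than the gap between the strains. The difference was 0.83 ± 0.11 (SE, 1.78-fold, adjusted p = 0.00184 in limma). Another probe, which shares 40 of its 60 bases with the brightest one and is therefore no separate measurement of the transcript, gave the same difference of 0.83.

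The Igf1 probes gave differences of different size. At the probe farthest downstream (chr10:87399581-87399640) the level was 5.78, 6.08, 6.03 and 5.96 in NZO and 4.98, 4.85, 4.07 and 4.60 in B6. Again all NZO mice were above all B6 mice, and B6 015 was the lowest of all. The difference of 1.34 ± 0.20 (SE, adjusted p = 0.00263) corresponded to 2.53-fold, and the probe between these positions gave 1.19 ± 0.17 (2.28-fold, adjusted p = 0.00250). The level of the farthest probe minus that of the brightest probe, taken within each array, was -1.75 ± 0.16 in NZO and -2.26 ± 0.26 in B6 (SD, n = 4 each). This contrast, chosen after the values were seen, differed between the strains by 0.51, with a two-sided exact permutation p of 0.0286, the smallest that 4 against 4 arrays allow, and 0.0571 after adjustment over the 2 probe pairs compared. For the probe between these positions the same contrast differed by 0.36 (exact permutation p = 0.0857, the same after adjustment), so neither pair passed. The remaining probe, 15125 bases upstream of the brightest one and assigned to another transcript, had a level of 3.03 ± 0.84 in NZO and 2.79 ± 0.76 in B6 and did not separate the strains.

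Igfals encodes the acid-labile subunit, which holds IGF1 and a binding protein in the large complex of the circulation. Its level was 4.56, 4.60, 4.59 and 4.51 in NZO and 4.37, 4.22, 3.77 and 4.19 in B6. All NZO mice were above all B6 mice, and the NZO mice were close to each other (SD 0.04, with a smaller SD at 0.749% of all tested probes). The difference of 0.42 ± 0.14 (SE) had an adjusted p of 0.0770 and was under the fold limit. STAT5 dimers bind the palindrome TTCNNNGAA, which reads alike on both strands and was searched in windows from 250 bases before to 50 bases after the annotated starts (RefSeq, GRCm38.p6). Promoter windows were at hand for 9 of the 10 genes (15 windows), and 5 windows of Igfals, Cish and Bcl6 held the motif, compared with 8.30% of all 32851 windows. No match was found in the windows of Igf1, Ghr, Cux2 and the 3 binding proteins. One window of Igfals carried it 58 bases before the start (GRCm38, chr17:24878163-24878192, plus strand), with the match in capitals:
Igfals: ctgccaggtgTTCCTAGAAgaggccctggg

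IGF-binding protein 1, whose hepatic expression is known to be lowered by insulin and raised in fasting, was lower in NZO. At its only probe (mm9, chr11:7102442-7102501) the log2 level of Igfbp1 was 3.78, 3.10, 4.19 and 4.27 in the NZO mice and 6.08, 7.37, 7.12 and 6.20 in the B6 mice. The lowest B6 mouse was above the highest NZO mouse by more than the range of either strain. The difference of -2.86 ± 0.37 (SE) had an adjusted p of 0.00127 in limma, and the level in B6 was 7.25-fold that in NZO. The core of the insulin response element, CAAAACA, was searched on both strands and occurred in 6.28% of all promoter windows. Among the 15 windows described above the Igfbp1 promoter alone held it, 108 bases before the start (GRCm38, chr11:7197673-7197702, plus strand), here in capitals. GTAAACA, a core bound by forkhead factors and searched likewise, occurred in 3.65% of all windows and in 1 window of the 15, that of Igfals.
Igfbp1: cacaagCAAAACAaacttattttgaacact

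Igfbp2, the second binding protein that the liver secretes in quantity, was lower as well. At the brighter probe the log2 level of Igfbp2 was 2.49, 1.82, 2.73 and 0.72 in the NZO mice and 5.53, 5.51, 5.18 and 5.55 in the B6 mice. The B6 mice were alike, with B6 015 slightly below the others, while the NZO mice covered a 4.04-fold range and NZO 011 was the lowest. The difference was -3.50 ± 0.40 (SE, adjusted p = 0.000688 in limma), and the level in B6 was 11.3-fold that in NZO. The second Igfbp2 probe ranked the 4 NZO mice in the same order and gave a difference of -3.60 ± 0.38 (adjusted p = 0.000432). The 60 bases of the brighter probe (mm9, chr1:72898677-72898736, plus strand) are shown as the stretch of the transcript at which the lower level was measured:
Igfbp2 probe: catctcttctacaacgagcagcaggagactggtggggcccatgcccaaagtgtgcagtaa

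IGF-binding protein 3, the main carrier of IGF1 in the circulation, is made in liver largely by cells other than hepatocytes. Its detected probe had a level of -0.31, 0.50, 0.09 and 0.06 in NZO and -0.05, 0.37, -0.03 and -0.28 in B6. The strains overlapped fully, with a difference of 0.08 ± 0.20 (SE). The other Igfbp3 probe was not well above background on any array. Igfbp3 is the direct neighbour of Igfbp1, with 0 genes between them in the mouse gene table and 4092 bases between their probes, so that the neighbouring genes gave a difference of -2.86 and of 0.08.

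**Figure D2:**
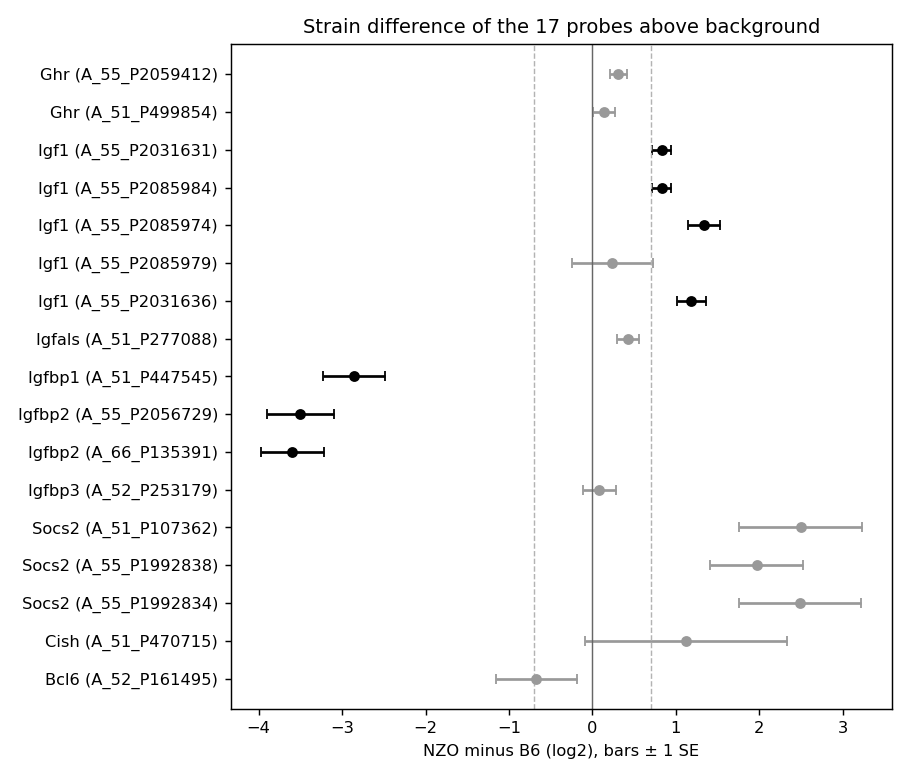
Difference between NZO and B6 (log2) at the 17 tested probes of the growth hormone and IGF axis, with ± 1 SE from limma; black, called; grey, not called; dashed lines, the fold limit of 0.7 in either direction. The called probes are 4 of Igf1 on the right and those of Igfbp1 and Igfbp2 on the left, and the 3 Socs2 probes have large differences with wide errors.

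Socs2, a target of STAT5 whose product limits growth hormone signalling, varied among the B6 mice. At the probe present in 10 spots (mm9, chr10:94875066-94875125) the log2 level of Socs2 was 3.11, 3.03, 2.74 and 2.13 in the NZO mice and 2.30, -1.48, -0.65 and 0.85 in the B6 mice. The NZO mice covered a 1.98-fold range and the B6 mice a 13.7-fold range, in which B6 011 reached the level of NZO and B6 010 and B6 015 were lowest. The SD was 0.45 in NZO, larger than at 77.4% of all tested probes, and 1.67 in B6, larger than at 99.8% of them, while the 10 spots of 1 array had an SD of 0.05 to 0.24. The difference of 2.50 ± 0.74 (SE, 5.64-fold) had an unadjusted p of 0.00947 and an adjusted p of 0.0609 in limma, and was not called. Without B6 011, the B6 mouse at the level of NZO, the difference was 3.18 with an adjusted p of 0.00995, and all 3 Socs2 probes were then called. Leaving out any other mouse left all 3 uncalled, with an adjusted p of 0.0850 to 0.141 in limma at this probe.

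Both other detected Socs2 probes gave the same order of the B6 mice, with differences of 1.97 ± 0.56 and 2.49 ± 0.73 (SE; adjusted p = 0.0507 and 0.0580). At the latter all NZO mice were above all B6 mice, by a narrow margin. The fourth Socs2 probe was not well above background on any array. The probe with the difference of 1.97 lies at mm9, chr10:94875468-94875527 (minus strand) and has this sequence:
Socs2 probe: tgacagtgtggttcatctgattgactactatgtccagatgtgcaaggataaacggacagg

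Cish, another STAT5 target and feedback inhibitor, was the most variable gene of the axis in both strains. Its log2 level was 3.88, 4.93, 1.03 and 3.85 in the NZO mice and 3.21, -0.96, 2.66 and 4.31 in the B6 mice. The lowest mouse was NZO 009 in NZO and B6 010 in B6, each well below the others of its strain, and the strains overlapped. The range was 14.9-fold in NZO and 38.8-fold in B6, and the SD of 1.67 and 2.29 was larger than at 99.6% and 99.96% of all tested probes (median SD 0.23 in NZO and 0.19 in B6). The difference of 1.12 ± 1.21 (SE) was smaller than its error, and it was 0.030 without B6 010, 0.62 without NZO 003 and 1.92 without NZO 009. Directly at the annotated start of Cish the motif TTCNNNGAA occurred in a pair of matches, beginning at bases 1 and 12 of the transcript (GRCm38, chr9:107296654-107296683, plus strand):
Cish: cagttTTCCTGGAAagTTCTTGGAAatctg

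Bcl6 encodes a repressor whose binding sites overlap those of STAT5, and its own transcription is known to be lowered by STAT5. The log2 level of Bcl6 was 2.76, 3.81, 3.37 and 2.85 in the NZO mice and 3.54, 5.30, 3.70 and 2.93 in the B6 mice. The highest value was that of B6 010, the mouse with the lowest Socs2 and Cish, and the strains overlapped. The difference of -0.67 ± 0.48 (SE) did not pass the threshold (adjusted p = 0.414 in limma), and it was -0.19 without B6 010 and -0.98 without B6 009. One Bcl6 promoter window held the motif at 3 places, 168, 122 and 88 bases before the start, on the minus strand of chromosome 16 (GRCm38; chr16:23981432-23981461, chr16:23981386-23981415 and chr16:23981352-23981381):
Bcl6, 168 before the start: aggccgcggcTTCCTGGAAagttacttctc
Bcl6, 122 before the start: ggcaggagtgTTCTGTGAAatccttagagc
Bcl6, 88 before the start: atcgactacgTTCCGGGAAtgagagggctg

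Cux2, the female-biased repressor, was near the limit of measurement in these male livers. The better of its 2 probes was well above background on 3 arrays of each strain, with log2 levels of -3.06, -3.85, -3.21 and -3.62 in NZO and -4.11, -3.48, -3.85 and -3.60 in B6. The strains overlapped, and the probe was not tested. The other Cux2 probe was not well above background on any array.

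Across the 8 mice, Socs2 correlated with Cish with r = 0.60 (Spearman's rho 0.52) and with Bcl6 with r = -0.67 (rho -0.45), and Cish correlated with Bcl6 with r = -0.74 (rho -0.36). None of these 3 pairs, chosen after the values were seen, passed an exact permutation test (p = 0.139, 0.113 and 0.0948 for r, each 0.139 after adjustment over the 3 pairs; p = 0.197, 0.267 and 0.389 for rho, each 0.389 after adjustment; n = 8). Without the 2 mice farthest from the median of the first gene of each pair, r became -0.17, 0.34 and -0.15, so that the relations did not hold without those mice, among them B6 010 in every pair; leaving out extreme mice also narrows the range of the first gene. With each value taken as the deviation from the mean of its strain, r was 0.60, -0.57 and -0.71, and from the mean of its day of scanning, an addition made after the data were seen, 0.56, -0.63 and -0.68. Within the 5 arrays of the first day r was 0.64, -0.71 and -0.68, and the second day holds 3 arrays, for which r was not computed. These values are descriptions without a test, since the days hold few arrays, and B6 010 is among those of the first day.

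Scanning took place on 2 days, with 5 slides in all, and each day holds both strains (3 NZO and 2 B6 mice on the first, 1 NZO and 2 B6 mice on the second). The 2 B6 mice with the lowest Socs2 and the highest Igfbp1, B6 010 and B6 015, were scanned on the first day and shared slide 1 with NZO 003. Within the first and the second day the difference in Socs2 was 3.69 and 1.54, in Igfbp1 -3.39 and -2.37, in Igfbp2 -3.59 and -3.05, and in Igf1 0.86 and 0.81 at the brightest probe of each gene. The strain difference therefore had the same direction within each day for these 4 genes, and on slide 1 it was 4.09, -4.14, -3.52 and 0.99. With the day of scanning as a term in limma, Socs2 differed by 2.92 ± 0.53 (SE, adjusted p = 0.0101) and was called. With the slide as a fixed term in limma, the strain difference rested on slide 1 alone, the only slide with both strains. It then compared NZO 003 with B6 010 and B6 015. All called probes of Igf1 and Igfbp2 lost their calls in that fit. With 1 NZO mouse, the fit cannot tell an effect of the slide from the loss of arrays. For Cish the difference was 2.43 within the first day and 0.12 within the second.

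**Figure D3:**
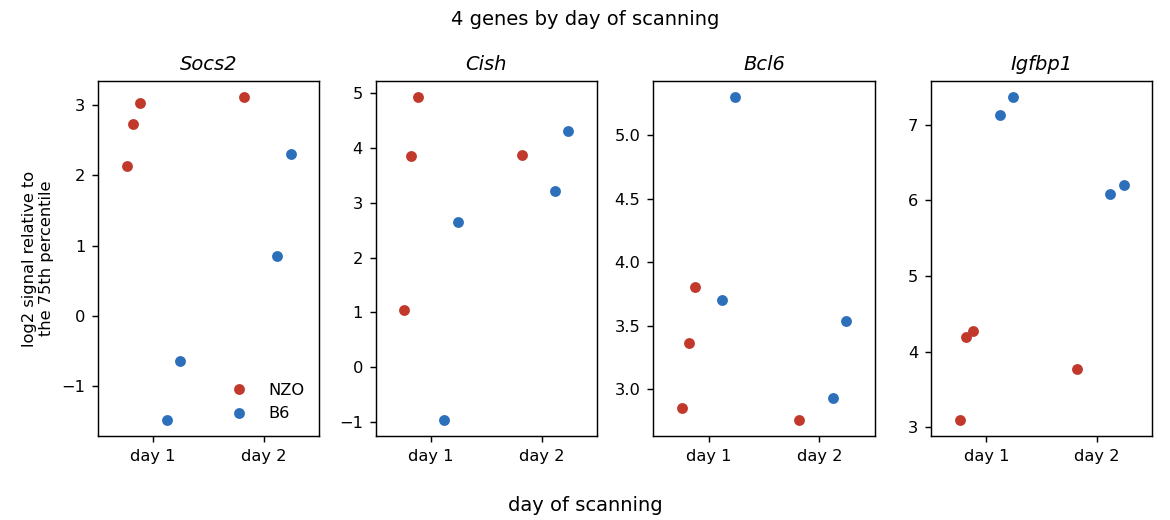
Level of Socs2, Cish, Bcl6 and Igfbp1 (log2 signal relative to the 75th percentile of the array) at the brightest probe, by day of scanning; each point is 1 mouse, red for NZO and blue for B6. The B6 mice of the first day had lower Socs2 and higher Igfbp1 than those of the second day.

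Beyond the 10 genes, 12 probes of 9 further genes of the IGF system were tested, of which 0 were called by limma at the adjusted p and 0 at an unadjusted p with the same fold limit. Igfbp4, a binding protein that the liver also secretes, was 0.48 ± 0.11 (SE) higher in NZO with an adjusted p of 0.0213, which is under the fold limit. The receptor Igf1r, sparse in hepatocytes, differed by -0.22 ± 0.20, and the insulin receptor Insr by -0.32, 0.46 and -0.06 at its 3 probes, with only the second past the adjusted p (0.0185). Igf2, a fetal growth factor that is silenced in adult mouse liver, was well above background on 0 NZO and 2 B6 arrays and was not tested.

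Of 11 tested probes of genes that respond to insulin or fasting, 1 was called higher and 1 lower in NZO (4.36% and 5.27% of all tested probes). Fgf21, a fasting hormone of the liver, was 2.45 ± 0.65 (SE) higher (adjusted p = 0.0402), a call that was lost without any one of 6 of the 8 mice. Srebf1, an insulin-induced regulator of lipid synthesis, was 0.79 ± 0.17 lower (adjusted p = 0.0162), which was no longer called without NZO 007 or without B6 009. The gluconeogenic genes Pck1 and G6pc, which like Igfbp1 are repressed by insulin, differed by -0.47 ± 0.29 and -0.28 ± 0.33 and did not pass the threshold.

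Genes whose sex bias in liver is known to follow the pattern of growth hormone release were listed separately. Of 18 tested probes of male-biased genes, 2 were called higher and 3 lower in NZO, with a median difference of 0.02. Of all tested probes, 4.36% were called higher and 5.27% lower. The higher ones were Cyp4a12a and Cyp4a12b, fatty acid hydroxylases with near-identical sequences that the probes may not separate, by 1.30 ± 0.16 and 1.32 ± 0.18 (SE; adjusted p = 0.00115 and 0.00192). The lower ones were the complement gene C6 by -0.74 ± 0.20, Moxd1 by -3.84 ± 0.89, which was well above background on 3 of 4 NZO arrays and on all B6 arrays, and the major urinary protein Mup20 by -1.85 ± 0.19 at 1 of its 2 probes. Classical male-biased genes such as Elovl3, Hsd3b5 and Slco1a1 differed by 0.04, 0.09 and 0.08 and did not pass the threshold. Cyp7b1 differed by 0.57 ± 0.21 and Gstp1 by -0.35 ± 0.17 at 1 of its 2 probes. Both were without overlap and did not pass the threshold either. Leaving out B6 011, B6 010 or B6 009 reduced the number of lower calls from 3 to 1.

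Of 16 tested probes of female-biased genes, 9 were called higher and 3 lower in the male NZO mice, with a median difference of 2.79. The other 12 of the 28 probes of the list were not tested. At 6 of the 9 higher probes, B6 was not well above background on any array, so that only lower bounds of the fold could be given, from 3.92 to 63.6, and with these bounds the median of the tested probes was 1.98. These 6 probes entered the test only because NZO was above background, so they had to differ, and neither the count nor the median describes the list as a whole. Among probes measured on all 8 arrays, Cyp3a41b was 5.51 ± 0.23 (SE) higher, Hamp2, a relative of the iron hormone hepcidin, 2.99 ± 0.37, and Cyp3a16 2.85 ± 0.22 (adjusted p = 2.89e-06, 0.00104 and 8.27e-05 in limma). The lower ones were Cyp39a1, an oxysterol hydroxylase, by -5.64 ± 0.14 (adjusted p = 2.27e-07) and Cyp2a4 by -1.28 ± 0.26 and -1.31 ± 0.28 at its 2 probes. The members of the Cyp3a and Cyp2a families are close paralogs, and their probes may bind more than one of them. Chosen after their values were seen, Cyp3a44 and the peroxisomal oxidase Hao2 had the highest bounds, at least 63.6-fold and at least 41.9-fold higher in NZO.

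**Figure D4:**
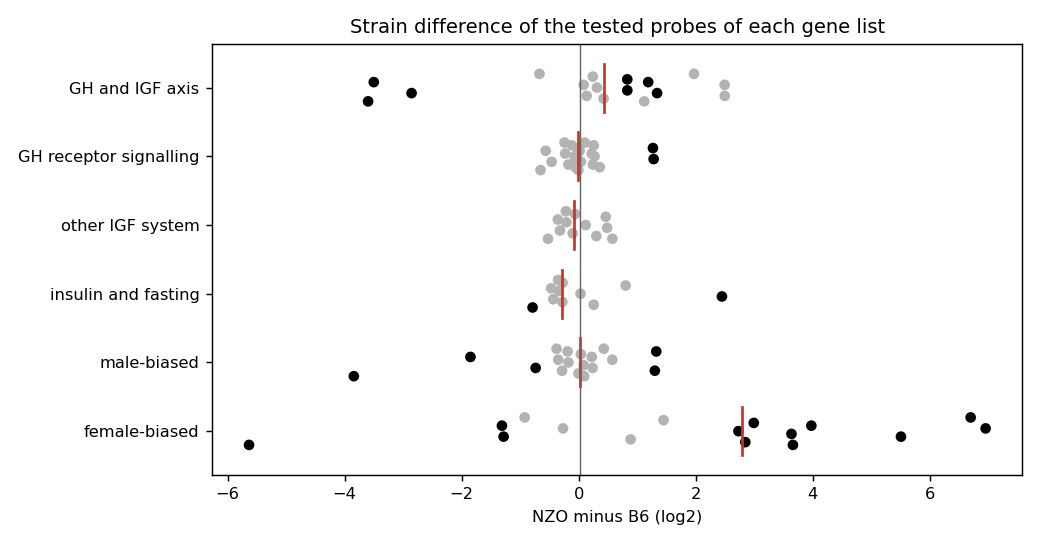
Difference between NZO and B6 (log2) of each tested probe, by gene list; black, called; grey, not called; red lines, the median of each list; grey vertical line, the median of all tested probes (0.02). Of the 16 female-biased probes, 6 are plotted against B6 values at background and entered the test through NZO alone, so the medians of the lists are not comparable.

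In bulk tissue, fewer cells of a type and less RNA per cell cannot be told apart. All 5 hepatocyte markers (Alb, with the brightest probe, Ttr, Apoa1, Cps1 and Tat) were well above background on all 8 arrays, and none of them was called. Their summed signal relative to the 75th percentile, on a linear scale, was 3868, 3921, 3856 and 3793 in NZO and 3201, 3765, 3646 and 3000.2 in B6, so that all NZO mice were above all B6 mice. Alb and Ttr did not overlap between the strains either, with differences of 0.27 ± 0.12 and 0.15 ± 0.08 (SE; adjusted p = 0.203 and 0.270 in limma). Apoa1, Cps1 and Tat did overlap, with differences of 0.01 ± 0.13, -0.01 ± 0.19 and -0.31 ± 0.23. Of the Kupffer cell markers 2 of 6 probes were called lower in NZO, Clec4f by -1.13 ± 0.13 and Cd5l by -0.71 ± 0.11 (SE), and all 5 genes were well above background on all arrays. Both probes of Emr1 differed by -0.62 ± 0.13 and -0.60 ± 0.17 without overlap (adjusted p = 0.0158 and 0.0489), under the fold limit. Their summed signal relative to the 75th percentile, on a linear scale and with the Cd5l probe as the brightest, was 89.3, 97.8, 82.9 and 85.4 in NZO and 151, 136, 168 and 129.7 in B6. The strains did not overlap, as at the called probes of Igf1, Igfbp1 and Igfbp2. For red blood cells, 2 of 4 probes were called higher in NZO, Hba-a1 by 1.01 ± 0.22 and Alas2 by 0.90 ± 0.13, and the summed signal, mostly Hba-a1, was 365, 318, 470 and 293 in NZO and 208, 165, 155 and 196 in B6. Of the stellate cell markers 1 of 5 was called, Pdgfrb by -0.99 ± 0.10, and the summed signal, with the Acta2 probe the brightest, was 3.24, 3.05, 3.01 and 2.35 in NZO and 3.85, 4.0, 3.76 and 3.60 in B6. Of the leukocyte markers 1 of 6 probes was called, Itgax by -2.04 ± 0.53 (SE; well above background on 2 NZO and 4 B6 arrays), and 1 of the 2 probes of Cd68 differed by -0.42 ± 0.11 without overlap, under the fold limit. Ptprc and the other Cd68 probe differed by -0.51 ± 0.17 and -0.25 ± 0.21. Lyz2 and Cd3e went the other way, by 0.41 ± 0.15 and 0.33 ± 0.34, and the strains overlapped at all of these probes. The leukocyte sum, with the Cd3e probe the brightest, was 18.8, 10.8, 11.4 and 11.3 in NZO and 12.2, 10.8, 11.9 and 13.4 in B6, with overlap. Of the adipocyte markers 0 of 4 tested probes were called by limma (also 0 at an unadjusted p with the same fold limit), and Adipoq, Plin1 and Lep, which define the cell type, were not well above background on any array. Car3, which hepatocytes also express, was 0.47 ± 0.10 higher in NZO (adjusted p = 0.0131, under the fold limit), and the adipocyte sum, mostly Car3, was 606, 565, 644 and 575 in NZO and 413, 409, 425 and 481 in B6, without overlap. Fabp4 went the other way, by -0.30 ± 0.15, and the 2 probes of Cidec differed by 0.42 ± 0.21 and 0.29 ± 0.37, all with overlap. The part of these cells in the differences of Igf1, Igfbp1 and Igfbp2 was not tested. Endothelial markers had 0 of 8 probes called by limma (1 lower at an unadjusted p, 0 higher). Lyve1 differed by -0.62 ± 0.15 and 1 of the 3 probes of Stab2 by 0.49 ± 0.09 (SE; adjusted p = 0.0247 and 0.00887), both without overlap and under the fold limit, while the other Stab2 probes gave -0.93 and -0.44. The skeletal muscle sum reached 16.4 in NZO 007 and between 0.186 and 5.49 in the other mice.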

How the data were processed

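Liver RNA of 4 NZO and 4 B6 mice was hybridised to 1-colour Agilent arrays. The authors deposited 1 scanner file per array, whose intensity values were made with Feature Extraction 11.0.1.1 according to the file headers (the submitters' processing notes name 9.1): the processed signal is background-subtracted and not scaled between arrays. They also deposited a table of intensity values for all arrays, which equalled the raw median intensity at 59305 of 59305 spots on each array (tolerance 0.01). Groups were taken from the sample labels, and nothing in the labels besides the mouse numbers says that the samples are separate animals, so the p-values measure the spread between these samples.

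Controls and spots with an outlier flag (96 to 137 on an array) did not enter. The log2 processed signal minus the 75th percentile of the array was averaged over the spots of a probe, and limma 3.58.1 in R 4.3.3 (data.table version 1.17.8) compared NZO with B6 over 27643 probes. Called probes had an adjusted p of at most 0.05 and a log2 difference of at least 0.7, the fold limit of the methods. Gene names are those of the array files, and NZO sequence at the probes was not examined. Python 3.11.15 with pandas 2.3.3, numpy 2.4.6, scipy 1.17.1 and matplotlib 3.10.9 made the other values, exact tests and plots.

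The members, lists and tests were chosen with earlier results of these data known. Named were all 10 members, from each other list the called genes (at most 4 per direction, measured on all 8 arrays), preset genes of the pathway, and the detected markers of lists that moved; other genes were named after their values were seen. Alternatives were normexp (offset 50), quantile normalization, the deposited table, no filter, slide, day of scanning or mouse number in the fit, the test with Welch correction, the unadjusted p, outlier spots kept, and leaving out each mouse. The number of arrays limits the precision, and the time of day and feeding state at sampling are not given in the sources used here.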

Additional observations from a re-analysis of the deposited data

Results flagged for a closer look

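Among 34 groups of 4 mice (17 probes in 2 strains), 2 had a mouse standing apart from the others of its strain, and about 1 in 20 groups does so by chance. Both were the same mouse and gene: B6 015 had a log2 level of Igfbp2 of 5.18 at the brighter probe and 4.64 at the other, each below the 3 other B6 mice, which lay within a narrow range.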

How the results depend on the processing

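The 7 called probes of Igf1, Igfbp1 and Igfbp2 kept their direction under all 19 alternatives, and leaving out 1 mouse ended none of these calls. For many alternatives the direction was fixed beforehand. No filter, the Welch correction and the unadjusted p leave the difference as it is. Leaving out 1 mouse could not reverse it, because the strains did not overlap at these probes. Leaving out each mouse gave 0.77 to 0.89 for Igf1, -3.06 to -2.61 for Igfbp1, -3.77 to -3.10 for Igfbp2 and 1.92 to 3.18 for Socs2, at their brightest probes, and 0.030 to 1.92 for Cish and -0.98 to -0.19 for Bcl6; 4 to 7 probes of the axis were then called higher. The brightest Igf1 probe lost its call with the deposited table (0.61), where the 2 probes farther downstream kept theirs (1.12 and 0.92). When the slide was a fixed term, the difference came from slide 1 alone, with 1 NZO and 2 B6 mice. All 4 called Igf1 probes then lost their calls (0.99 at the brightest), as did both Igfbp2 probes (-3.52 at the brightest). With the Welch correction the Igf1 probe with a difference of 1.19 lost its call (adjusted p = 0.0594), which left 3 probes called higher. Socs2 gained its call with normexp (1.98), the deposited table (1.99), the slide as a random block (2.60), the day of scanning (2.92) and the unadjusted p (2.50, unadjusted p = 0.00947). On slide 1 alone, as with the slide as a fixed term, its difference was 4.09. In the test with Welch correction its brightest probe was not called (unadjusted p = 0.0537, adjusted p = 0.210). The cause of the gained calls was not tested. Probes of the axis called higher numbered 7 (4 of Igf1 and 3 of Socs2) with normexp, the slide as a random block, the day of scanning and the unadjusted p, and those called lower 1 with the slide as a fixed term. Values near 0 changed sign: Ghr's second probe with the deposited table (-0.078), Igf1's upstream probe without NZO 011 (-0.13) or B6 010 (-0.097; range without 1 mouse -0.13 to 0.54), and Igfbp3 with the deposited table (-0.10), the day of scanning (-0.021), without NZO 003 (-0.054) or B6 009 (-0.010; range -0.054 to 0.22).

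Of all probes, 618 were called higher and 580 lower with normexp, 576 higher with the deposited table, 504 higher with the slide fixed and 886 lower with the Welch correction. The share of higher calls was 45.3% as reported, 28.8% with the deposited table, which moved the median of all probes to -0.15, and 33.9% with the slide fixed. Probes of male-biased genes called lower numbered 1 with no filter and with the Welch correction, 0 with the slide fixed, and 1 to 3 without 1 mouse. Probes of female-biased genes called lower numbered 1 with the slide fixed and with the Welch correction. For growth hormone receptor signalling, 0 were called higher with the slide fixed, 2 lower with the day of scanning and 0 to 1 lower without 1 mouse. For insulin and fasting, 0 were called higher with no filter, the slide fixed and the Welch correction, 2 with the unadjusted p, 0 lower with the slide fixed, and 0 to 1 in each direction without 1 mouse.

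Mouse numbers 009 and 011 occur in both strains, and nothing in the labels says that they pair animals. The deviations of same-numbered mice correlated with r = -0.26 and -0.004 across probes. All 16 cross-strain pairs ranged from -0.354 to 0.346, so these 2 values cannot decide whether the numbers pair animals. With the mouse number as a replicate block, which rests on 2 pairs, Igf1 differed by 0.72, Igfbp1 by -1.91, Igfbp2 by -3.82, Socs2 by 0.86 (adjusted p = 0.496) and Cish by -1.32. In this fit 0 probes of the axis were called in either direction (72 probes higher and 134 lower of all, 35% higher). In that fit 0 probes were called for growth hormone receptor signalling, insulin and fasting and male-biased genes in either direction, and 5 higher and 1 lower for female-biased genes.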
